A study of Mus musculus with 6 samples.

Results

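The set described here holds the genes Sod1, Sod2, Cat, Mt1, Mt2 and Srxn1. Their rows were found in the deposited table by gene name, a rule with no measured value in it, but the set was proposed with earlier results of these data known. All 6 were found, each as 1 row, among 55487 genes. They were read in long-term hematopoietic stem cells (LT-HSCs) from the bone marrow of wild type mice that had not been irradiated. The cells had been sorted as negative for lineage markers, Flk2 and CD34 and as positive for Sca-1 and c-Kit. The control group held 3 libraries from mice given saline, and the other group held 3 libraries from carnosine-treated mice. Carnosine, built from histidine and beta-alanine, is known as an antioxidant dipeptide. For dose, duration, strain, age and sex nothing is given in the sources used. Whether each library came from its own mice is not stated, so p-values measure the spread between these samples, which may be technical.

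Superoxide, a by-product of respiration and of NADPH oxidases, is turned into hydrogen peroxide by superoxide dismutases: Sod1, a copper and zinc enzyme of the cytosol, and Sod2, a manganese enzyme of the mitochondrial matrix. Catalase (Cat), which sits in peroxisomes and is abundant in red cells, breaks hydrogen peroxide down, and sulfiredoxin (Srxn1) repairs peroxiredoxins that the peroxide has overoxidised. Metallothioneins (Mt1, Mt2) are small cysteine-rich proteins that bind zinc and copper, and their genes are switched on by the zinc sensor MTF1 through metal response elements. Stem cells of the marrow are known to be sensitive to reactive oxygen species, and FOXO factors are known to keep Sod2 and Cat expressed in them.

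The metallothionein genes and Srxn1, the genes with the largest fold changes of the 6, are shown first with the bases in front of their RefSeq start sites on GRCm38.p6, because metallothionein and sulfiredoxin promoters are known for the elements that sense metals and oxidants. Each run ends at the base before the start site, 5′ to 3′ on the gene's strand, and all 3 genes lie on the plus strand. Capitals mark metal response element cores (TGCACNC or TGCGCNC, on either strand) in Mt1 (chr8:94178839-94179088) and Mt2 (chr8:94172368-94172617), and AP-1 sites (TGAGTCA, on either strand) in Srxn1 (chr2:152105274-152105523).
Mt1: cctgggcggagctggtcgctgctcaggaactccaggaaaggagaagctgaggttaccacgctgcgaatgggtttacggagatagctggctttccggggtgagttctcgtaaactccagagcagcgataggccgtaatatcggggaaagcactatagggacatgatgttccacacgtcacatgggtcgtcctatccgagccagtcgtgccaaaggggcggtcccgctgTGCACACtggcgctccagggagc
Mt2: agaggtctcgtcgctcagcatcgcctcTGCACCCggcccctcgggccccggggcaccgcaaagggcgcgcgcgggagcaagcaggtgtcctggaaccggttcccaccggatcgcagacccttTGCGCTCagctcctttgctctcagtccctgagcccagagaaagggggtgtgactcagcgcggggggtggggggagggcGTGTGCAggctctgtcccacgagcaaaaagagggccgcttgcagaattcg
Srxn1: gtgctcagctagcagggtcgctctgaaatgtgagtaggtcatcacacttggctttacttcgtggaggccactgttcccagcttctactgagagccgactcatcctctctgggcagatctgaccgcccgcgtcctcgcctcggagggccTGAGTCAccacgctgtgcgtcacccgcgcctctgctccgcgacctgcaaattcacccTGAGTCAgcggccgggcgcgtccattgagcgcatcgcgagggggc
In the full RefSeq window of 300 bases, from 250 before the start site to 50 after its first base, Mt1 held 3 metal response element cores, at bases -23 to -17, 3 to 9 and 21 to 27 counted from the start site, and the second of these shared a base with a GC box (GGGCGG). Mt2 held 4, at -223 to -217, -128 to -122, -50 to -44 and 5 to 11. Srxn1 held 1, and Sod1, Sod2 and Cat held 0, where 25.7% of 32851 mouse windows of the same length held at least 1. The 2 AP-1 sites of Srxn1 began at -102 and -45, and Mt2 held 1, at -79 to -73, inside a match to the antioxidant response element core (TGACNNNGC, either strand). AP-1 sites were in 5.2% of windows and antioxidant response element cores in 12.4%. A further antioxidant core stood in Sod1, at -56 to -48, and in Srxn1, at 29 to 37. The AP-1 site of Srxn1 at -45 reads on as TGAGTCAgc, which differs from the core searched only by G for C and was not counted. The windows of Sod1 and Sod2 each held 4 GC boxes and that of Cat held 1 (35.7% of windows had any), while CCAAT boxes (CCAAT, either strand) numbered 1, 1 and 4 in these genes (37.4% of windows had any). These matches describe letters in the windows and are not evidence of binding. The RefSeq start sites used differed from the deposited gene starts, for example 94172618 against 94172664 for Mt2 and 13007839 against 13006846 for Sod2. Whether they are the main start sites in these cells was not tested.

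Library totals ranged from 10304539 to 13251332 counts, and 15298 genes passed the filter on low counts, all 6 genes of the set among them. Genes with any count numbered 23914, 23899 and 25288 in saline replicates 1, 2 and 3. In the carnosine replicates they numbered 22461, 22218 and 22820. The groups thus did not overlap in genes detected, although their totals did, and the cause was not tested. Of the genes tested, 17.9% differed, 9.51% higher and 8.39% lower in carnosine, at an adjusted p under 0.05 (edgeR quasi-likelihood test, Benjamini-Hochberg over all genes tested), and every carnosine library lay above every saline library in 19.7% of genes and below in 19%. Against that background, 3 of the 6 genes, Sod1, Mt1 and Srxn1, passed the test as higher and 0 as lower, and the groups did not overlap in any of the 6, with carnosine above saline. All LT-HSC markers of a list of 13 passed the filter (summed level 1313 to 1409 CPM, counts per 1000000 counts, in saline and 1325 to 1465 CPM in carnosine). RNA of the genes behind the gate's negative markers went against the label: Flt3, which encodes Flk2, had means of 818 CPM in saline and 775 CPM in carnosine, and Cd34 had 857 and 861 CPM. Both lay above every stem cell marker of the list, of which Kit was the highest at 546 CPM in saline. Surface protein, on which the sort rests, is not measured here. In bulk samples fewer cells of a type and less RNA per cell cannot be told apart.

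**Figure D1:**
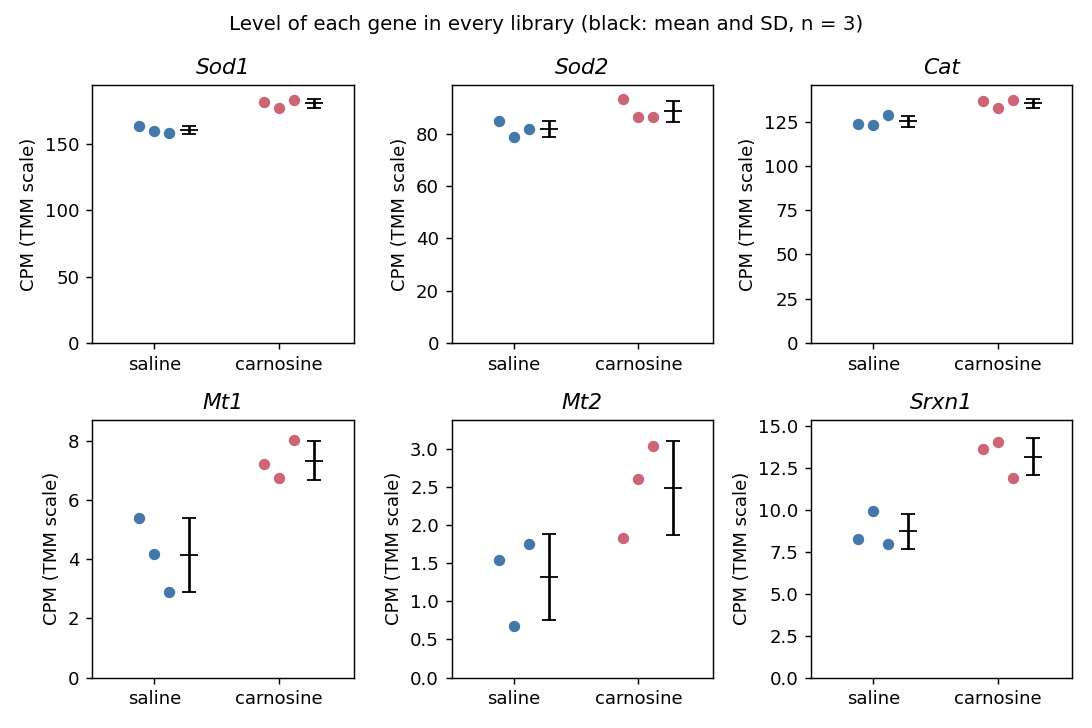
Level of each gene (vertical axis, CPM scaled by trimmed mean of M-values, from 0) in the 3 saline libraries (blue) and the 3 carnosine libraries (red), with mean and SD in black. In every panel the lowest carnosine point lies above the highest saline point, by a wide margin for Srxn1 (11.9 against 9.91 CPM) and a narrow one for Mt2 (1.82 against 1.74 CPM).

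Sod1 (ENSMUSG00000022982, GRCm38 chromosome 16, 90220754 to 90226329, plus strand) rose by 12.7% in carnosine. Its level was 164, 160 and 158 CPM in saline replicates 1, 2 and 3, and 182, 177 and 183 CPM in carnosine replicates 1, 2 and 3. The libraries of each group lay close together, and the gap between the groups was wider than the range within either. The means were 160 ± 2.84 CPM and 181 ± 3.23 CPM (SD, n = 3), which is 0.17 on the log2 scale (SE 0.03, 95% interval 0.10 to 0.25, edgeR adjusted p = 0.0102). The relative SD was 1.77% in saline, against 2.36% expected from counting alone, so the spread was no larger than counting error gives.

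Reads of Sod1 can be split with a copy elsewhere in the genome. The processed pseudogene Gm8566 (ENSMUSG00000047905) matches the Sod1 transcript over 465 bases at 97.8% identity and had counts of its own, 222, 208 and 283 in saline and 370, 271 and 364 in carnosine. Its share of the reads given to both was 11.2% to 11.9% in saline and 12.8% to 14.4% in carnosine. Gm8566 itself was higher in carnosine by 0.42 on the log2 scale (SE 0.08, edgeR adjusted p = 0.0128). With its reads added to Sod1, an alternative chosen after seeing the data, the sum rose from 181 to 209 CPM, a log2 fold change of 0.20 (edgeR adjusted p = 0.00519). The end of Sod1 also overlaps Scaf4 on the opposite strand, and how the counting treated strand is not stated. The mean of Scaf4 was 74.9 CPM in saline against 72.0 CPM (edgeR adjusted p = 0.527).

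Sod2 (ENSMUSG00000006818, chromosome 17, 13006846 to 13040063, plus strand) was 8.31% higher in the carnosine mean but did not pass the test. Saline replicates 1, 2 and 3 had 85.0, 79.0 and 81.7 CPM, and the carnosine replicates 93.3, 86.3 and 86.5 CPM. Carnosine replicate 1 stood above the other carnosine libraries, and the lowest carnosine value was just above the highest saline value. The log2 fold change was 0.12 (SE 0.05, 95% interval -0.0022 to 0.23, edgeR adjusted p = 0.158). Transcripts annotated to Sod2 share stretches of at least 95% identity with transcripts of 20 other genes, the longest 3110 bases with Rps6ka2, so part of its reads may be uncertain. The ratio of Sod1 to Sod2 counts was 1.93 to 2.02 in saline and 1.95 to 2.12 in carnosine, and these ranges overlap.

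Relatives of the dismutases did not pass the test or were at 0. Ccs, the chaperone that loads copper into Sod1, had a mean of 23.0 ± 0.57 CPM in saline against 23.1 ± 2.31 CPM (SD, n = 3; edgeR adjusted p = 0.966). Its fold change lay between -0.20 and 0.21 on the log2 scale (95% interval), and its sign turned under some alternatives. The extracellular dismutase Sod3 had 0 counts in every library, which allows up to 0.226 to 0.291 CPM by library (3 counts, counting error only).

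Catalase (Cat, ENSMUSG00000027187, chromosome 2, 103453849 to 103485160, minus strand) was 8.16% higher in the carnosine mean without passing the test. It measured 124, 123 and 129 CPM in saline replicates 1, 2 and 3, and 136, 132 and 137 CPM in the carnosine replicates. The groups did not overlap, although saline replicate 3 came within a few CPM of carnosine replicate 2. The log2 fold change was 0.11 (SE 0.04, 95% interval 0.03 to 0.20, edgeR adjusted p = 0.0693).

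Red cell precursors are rich in catalase. Of 13 erythroid markers, all tested, 7 were higher and 0 lower, where 9.51% and 8.39% of all genes tested were. Their summed level ranged from 521 to 541 CPM in saline and from 661 to 705 CPM in carnosine. The beta-globin gene Hbb-bs went from 4.27 ± 0.38 to 18.1 ± 2.02 CPM (SD, n = 3; edgeR adjusted p = 7.09e-05), whereas the erythroid factor Klf1 stood at 3.62 and 3.77 CPM (edgeR adjusted p = 0.856). No marker of the list was at 0. The part of these cells in the levels of Cat, Sod1 or the peroxiredoxins was not tested.

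Peroxisomes house catalase, and their genes were read beside it. Of 21 genes for peroxisome assembly and membrane transport, all tested, 0 were higher, against 9.51% of all genes tested. Lower were 2 (9.52%), near the 8.39% over all genes tested, so that count says nothing particular of the list. The median log2 fold change was -0.10 against 0.00092 over all genes tested. The assembly ATPase Pex6 was among those that fell (-0.18, edgeR adjusted p = 0.0216), and it lost the call without any 1 library (adjusted p up to 0.0717). With all libraries present, Pex6 also lost it under DESeq2 (adjusted p = 0.11), without a filter on low counts and with the replicate block. The difference between this list and Cat was not tested. Among 16 genes for oxidases and peroxidases that make or use hydrogen peroxide, 7 were tested, 0 rose and 1 fell (14.3%, against 8.39% of all genes tested). The gene that fell was the neutrophil peroxidase Mpo (-0.75, edgeR adjusted p = 2.96e-06), and the median of the list was 0.02.

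Srxn1 (ENSMUSG00000032802, chromosome 2, 152105516 to 152111376, plus strand), which restores overoxidised peroxiredoxins, rose 1.51-fold. Saline replicates 1, 2 and 3 had 8.27, 9.91 and 7.96 CPM (86, 102 and 105 counts), and the carnosine replicates 13.6, 14.0 and 11.9 CPM (164, 146 and 157 counts). The highest saline library was still well below the lowest carnosine library. The group means were 8.71 ± 1.04 CPM and 13.2 ± 1.13 CPM (SD, n = 3), a difference of 0.60 on the log2 scale (SE 0.12, 95% interval 0.31 to 0.88, edgeR adjusted p = 0.0159). The call was lost without saline replicate 1 (adjusted p = 0.0523), saline replicate 3 (0.0568) or carnosine replicate 1 (0.0541), with the log2 fold change between 0.53 and 0.70 whichever library was left out.

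Its substrates, the typical 2-Cys peroxiredoxins, were read with the sestrins as a list of 7 genes. All 7 were tested, 3 rose (42.9%, against 9.51% of all genes tested) and 0 fell (against 8.39%). The median log2 fold change was 0.28. Higher were Prdx4 of the secretory pathway (0.69, edgeR adjusted p = 0.000585), Prdx3 of mitochondria (0.28, adjusted p = 0.00877) and Prdx2 of the cytosol (0.17, adjusted p = 0.00675). These 3 calls held without any 1 library, with adjusted p up to 0.00399, 0.0325 and 0.0311. Prdx1, the remaining substrate, went from 139 ± 19.8 to 170 ± 27.7 CPM (SD, n = 3) with overlapping groups (edgeR adjusted p = 0.17). Prdx4 works in the secretory pathway, which is large in plasma cells. Of 9 B and plasma cell markers 8 were tested, 1 rose and 3 fell, where 9.51% and 8.39% of all genes tested did. Of these markers 0 were at 0, and their sum was 221 to 303 CPM in saline and 421 to 677 CPM in carnosine. That sum was carried by Jchain, the joining chain of secreted antibodies (136 ± 40.1 to 456 ± 139 CPM; SD, n = 3; edgeR adjusted p = 0.00649), while Ebf1 and Sdc1 were among those that fell. The part of these cells in Prdx4 was not tested. The list of mitochondrial manganese and antioxidant supply, around Sod2, had 13 of 14 rows tested. Higher was 1, again Prdx3 (7.69%, against 9.51% of all genes tested), and 0 were lower (against 8.39%), with a median of 0.06.

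**Figure D2:**
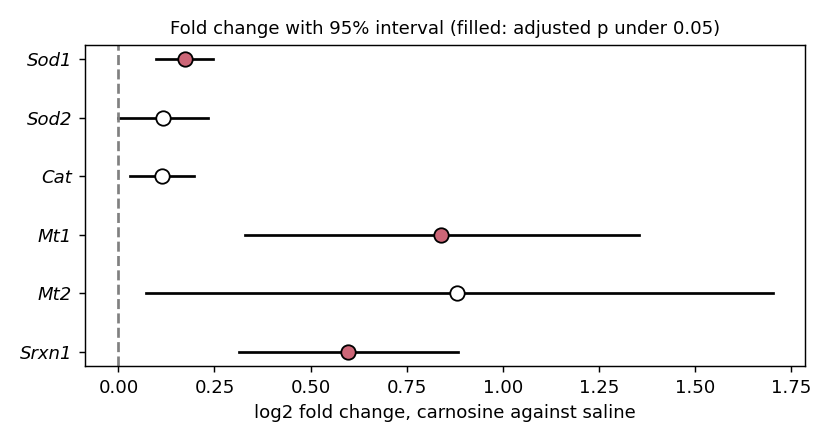
Log2 fold change of carnosine against saline (horizontal axis) for each of the 6 genes, with its 95% interval; filled circles passed the edgeR test at an adjusted p under 0.05. The intervals of Mt1 and Mt2 are the widest, and that of Sod2 is the 1 interval that includes 0.

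The metallothionein genes had the largest fold changes and the lowest counts of the set. Mt1 (ENSMUSG00000031765, chromosome 8, 94179082 to 94180327, plus strand) and Mt2 (ENSMUSG00000031762, chromosome 8, 94172664 to 94173568, plus strand) are neighbours, with 5513 bases between them. No stretch of at least 75 bases at 95% identity was shared between their transcripts. The antisense gene Gm45774 overlaps Mt2 and had 0 to 3 counts per library.

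Mt1 rose 1.77-fold. Saline replicates 1, 2 and 3 had 5.39, 4.18 and 2.88 CPM (56, 43 and 38 counts), and the carnosine replicates 7.21, 6.73 and 8.04 CPM (87, 70 and 106 counts). The saline libraries were widely spread, with a relative SD of 30.2% against 15.0% expected from counting, while the carnosine libraries stood at 8.99% against 10.8%. The means were 4.15 ± 1.25 CPM and 7.33 ± 0.66 CPM (SD, n = 3), a difference of 0.84 on the log2 scale (SE 0.22, 95% interval 0.33 to 1.36, edgeR adjusted p = 0.0372). The call was kept without saline replicate 1 (log2 fold change 1.07, adjusted p = 0.0229) and lost when any other library was left out: saline replicate 2 (adjusted p = 0.0922), saline replicate 3 (0.62 on the log2 scale, adjusted p = 0.0723), carnosine replicate 1 (0.0857), carnosine replicate 2 (0.0699) and carnosine replicate 3 (0.106).

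Mt2 had a similar fold with fewer reads and did not pass the test. It had 16, 7 and 23 counts in saline replicates 1, 2 and 3 (1.54, 0.68 and 1.74 CPM) and 22, 27 and 40 counts in the carnosine replicates (1.82, 2.60 and 3.03 CPM). Saline replicate 3 and carnosine replicate 1 were nearly equal. The means were 1.32 ± 0.56 CPM and 2.48 ± 0.61 CPM (SD, n = 3), a difference of 0.88 on the log2 scale (SE 0.35, edgeR adjusted p = 0.124). The 95% interval, 0.07 to 1.70 on the log2 scale, leaves the size of a difference in Mt2 poorly fixed at this depth. Mt1 and Mt2 did not take their high values in the same saline libraries: the ratio of Mt1 to Mt2 counts was 3.50, 6.14 and 1.65 in saline and 3.95, 2.59 and 2.65 in carnosine. Of the other genes of the cluster, Mt4 had 0 counts in every library and Mt3 had 2 counts in saline replicate 2, 2 in carnosine replicate 2 and 0 elsewhere, at or under the 3 counts that a count of 0 allows.

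Of 24 genes that supply or sense copper and zinc, all tested, 3 were higher (12.5%) and 2 lower (8.33%), with a median log2 fold change of -0.02. These shares lie near the 9.51% and 8.39% over all genes tested, so the count says nothing particular of the list. MTF1, the factor that activates metallothionein genes when zinc is high, fell: Mtf1 went from 37.0 ± 1.43 to 29.1 ± 0.49 CPM (SD, n = 3; log2 fold change -0.35, SE 0.06, edgeR adjusted p = 0.00802). The zinc importer Slc39a8 rose from 22.7 ± 1.34 to 30.9 ± 0.72 CPM (0.45, SE 0.07, edgeR adjusted p = 0.00525). The calls of Mtf1 and Slc39a8 held without any 1 library (adjusted p up to 0.0324 and 0.0251). The others were less stable: the zinc importer Slc39a10 (0.17, edgeR adjusted p = 0.0458) lost its call without any 1 library, and the copper importer Slc31a1 (0.31, adjusted p = 0.0323) and the zinc transporter Slc39a13 (-0.38, adjusted p = 0.0419) in 5 of 6 such fits each. Among the fits without 1 library, Slc31a1 and Slc39a13 kept the call only without saline replicate 3. With all libraries present, Slc39a10, Slc31a1 and Slc39a13 lost it in 7, 4 and 6 of the other alternatives. The copper chaperone Atox1, the most abundant of the list by deposited FPKM, stood at 29.8 and 30.1 FPKM (edgeR adjusted p = 0.889).

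**Figure D3:**
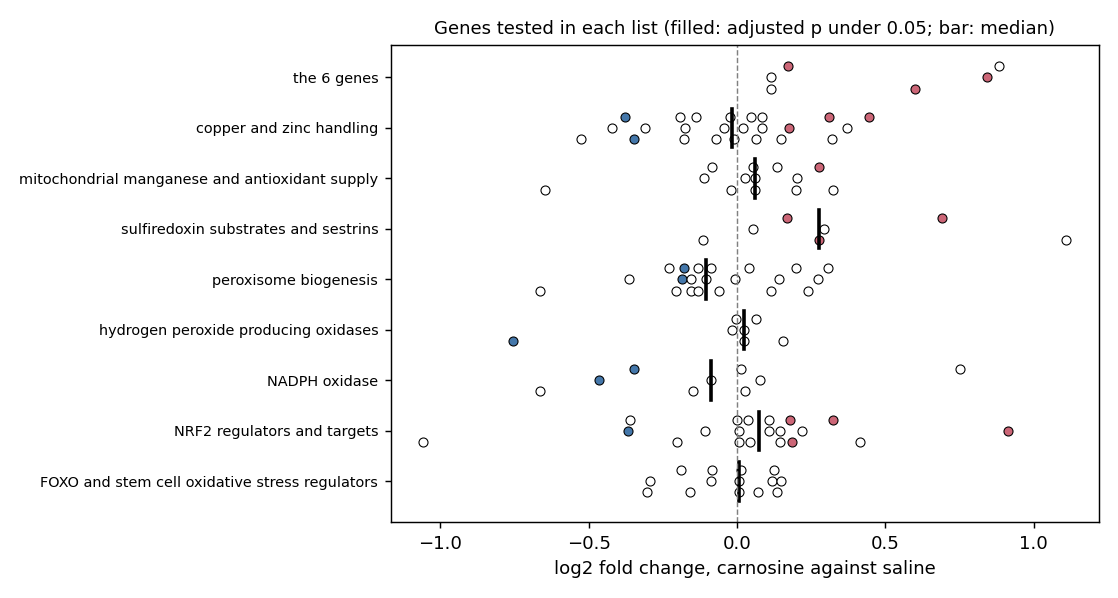
Log2 fold change (horizontal axis) of every tested gene in the set and in the lists around it; filled points passed the edgeR test (red higher, blue lower in carnosine) and black bars are list medians. All 6 genes of the set lie right of 0, while the lists for peroxisomes and NADPH oxidase have medians of -0.10 and -0.09.

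Targets and regulators of NRF2, the factor that responds to oxidants and is known to drive Srxn1, were read as a list of 21 genes. Of 20 tested, 4 rose (20%, against 9.51% of all genes) and 1 fell (5%, against 8.39%), with a median log2 fold change of 0.08. Glutathione reductase Gsr (0.32, edgeR adjusted p = 0.00912) and thioredoxin reductase Txnrd1 (0.18, adjusted p = 0.00605) rose and held without any 1 library (adjusted p up to 0.0361 and 0.0274). The glutathione synthesis subunit Gclc (0.18, edgeR adjusted p = 0.0463) lost its call without any 1 library. Malic enzyme Me1 (0.91, adjusted p = 0.0442) lost it in 5 of 6 such fits, keeping it only without saline replicate 2. With all libraries present, Gclc and Me1 lost the call in 5 and 3 of the other alternatives, DESeq2 among them (DESeq2 adjusted p = 0.148 and 0.248). The small MAF protein Mafk, a partner of NRF2, fell from 239 ± 8.75 to 185 ± 3.88 CPM (SD, n = 3; log2 fold change -0.37, edgeR adjusted p = 0.000698). Nfe2l2, which encodes NRF2, had a mean of 69.6 ± 1.26 CPM in saline against 60.4 ± 4.26 CPM (edgeR adjusted p = 0.0562), and its inhibitor Keap1 was 90.2 and 90.3 CPM (adjusted p = 0.994). The ferritin gene Ftl1 was the most abundant of the list by deposited FPKM (67.0 in saline), but the other ferritin gene, Fth1, was nearly level (66.8) and led per kb of principal transcript (307 against 222 CPM per kb). Ftl1 varied widely within both groups, 215 ± 119 CPM in saline against 221 ± 104 CPM (SD, n = 3; edgeR adjusted p = 0.962), and its sign turned when single libraries were left out.

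NADPH oxidase makes superoxide, and FOXO factors stand upstream of the enzymes that remove it. Of 11 NADPH oxidase genes 9 were tested, 0 rose (against 9.51% of all genes tested) and 2 fell (22.2%, against 8.39%). The median was -0.09. The cytosolic subunits Ncf1 (-0.47, edgeR adjusted p = 0.00215) and Ncf4 (-0.35, adjusted p = 0.0123) were those that fell, and both held without any 1 library (adjusted p up to 0.0101 and 0.0488). The GTPase Rac2, the most abundant of the list by deposited FPKM, had a mean of 302 CPM in saline against 308 CPM (edgeR adjusted p = 0.528). Neutrophils and monocytes use this oxidase. Of 10 markers of neutrophils and their progenitors 7 were tested, 0 rose and 3 fell. For this and the following marker lists, the shares over all genes tested were 9.51% higher and 8.39% lower. Of the neutrophil list 0 were at 0, and its sum was 716 to 729 CPM in saline and 451 to 468 CPM in carnosine. Most of that sum was Mpo (516 to 306 CPM), and with it the progenitor genes Elane and Ctsg fell, whereas the mature neutrophil genes Ltf, S100a8 and S100a9 had means of 0.95 to 3.58 CPM and did not pass the test. Of 9 macrophage and monocyte markers 8 were tested, 0 rose and 1 fell, Csf1r (25.8 ± 0.48 to 11.9 ± 0.73 CPM; SD, n = 3; edgeR adjusted p = 0.000112), 0 were at 0, and their sum was 70.4 to 78.2 CPM in saline and 51.6 to 54.8 CPM in carnosine. Of 5 mast cell and basophil markers 3 were tested, 0 rose and 2 fell, Cma1 was at 0, and their sum was 28.7 to 33.2 CPM in saline and 14.6 to 16.4 CPM in carnosine. The part of these cells in the oxidase genes was not tested. Among 15 genes of FOXO and stem cell stress regulation 14 were tested and 0 passed in either direction, where 17.9% of all genes tested did. The median was 0.0076. The count depended on the processing: 2 genes were lower with upper quartile scaling, 1 with the replicate block and 1 without saline replicate 1. Foxo3, the FOXO factor known for keeping dismutase and catalase expressed in these cells, had a mean of 295 ± 2.39 CPM in saline against 278 ± 5.94 CPM (SD, n = 3; edgeR adjusted p = 0.0718). Park7, an oxidant-sensing chaperone and the most abundant of the list by deposited FPKM, had a mean of 153 CPM in saline against 167 CPM (edgeR adjusted p = 0.329).

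The order of levels between the 6 genes depends on the gene length used. In the deposited FPKM, counts per kb of gene length scaled to library size, saline means were 39.9 ± 0.96 for Cat, 37.2 ± 0.70 for Sod1, 6.36 ± 0.24 for Sod2, 2.40 ± 0.29 for Srxn1, 1.83 ± 0.55 for Mt1 and 1.58 ± 0.68 for Mt2 (SD, n = 3). In saline the ranges of Srxn1 and Mt1 overlapped, as did those of Mt1 and Mt2, whereas Cat and Sod1 overlapped in carnosine but not in saline. The lengths behind these values, recovered from counts, FPKM and totals, equal the sum of all distinct annotated exons in GENCODE M21, overlapping exons counted more than once, for 93.6% of 31225 genes (within 1 base). For Mt1 that length is 2267 bases, longer than the 1246 bases its exons cover, and for Sod1 it is 4313 bases, against 641 in its principal coding transcript.

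With the length of the principal coding transcript in GENCODE M21 in place of that sum, an alternative chosen after seeing the data, Sod1 led by far. Saline means were then 250.2 ± 4.72 for Sod1, 47.9 ± 1.16 for Cat, 14.0 ± 0.52 for Sod2, 7.55 ± 2.29 for Mt1, 3.10 ± 0.37 for Srxn1 and 2.58 ± 1.10 for Mt2, in CPM per kb (SD, n = 3). Sod1 thus moved from just below Cat to above it, and Mt1 from below Srxn1 to above it. This scale divides all reads of a gene by that length. Sod1 has 2 annotated transcripts, 1 of them coding, and its exons cover 3970 bases. How many of its reads came from the other transcript was not tested, so its value on this scale may be too high. Carnosine means on this scale were 281 ± 5.02 for Sod1, 51.6 ± 0.98 for Cat, 15.1 ± 0.68 for Sod2, 13.3 ± 1.19 for Mt1, 4.84 ± 1.19 for Mt2 and 4.67 ± 0.40 for Srxn1, where Mt2 and Srxn1 did not differ beyond their spread. A gene's fold change between groups does not depend on this choice, since 1 length serves all libraries.

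**Figure D4:**
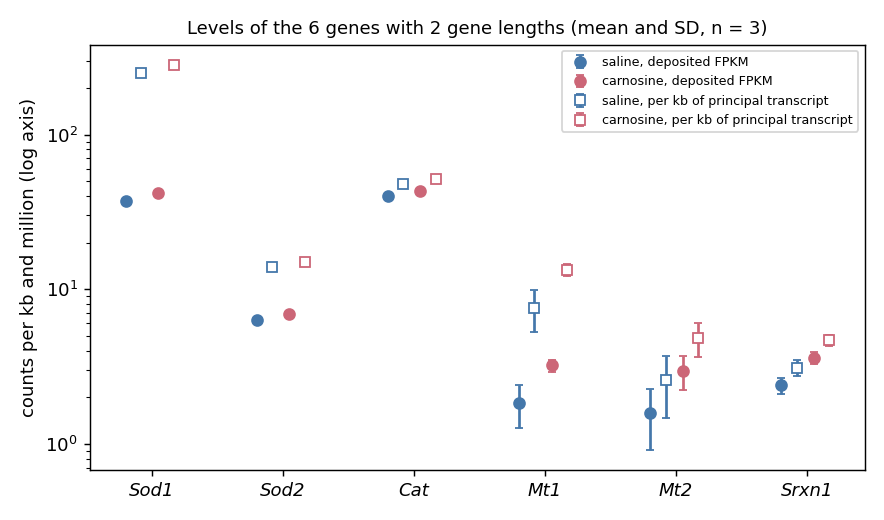
Levels of the 6 genes (vertical log axis, CPM per kb, mean and SD, n = 3) in saline (blue) and carnosine (red), as the deposited FPKM (filled circles) and per kb of principal transcript (open squares). Sod1 sits at 37.2 FPKM in saline, below Cat, and at 250.2 per principal kb, above Cat.

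Genes whose levels across the 6 libraries were most like each member were named by Pearson correlation of log2 CPM among the 8250 genes whose log2 CPM averaged 4 or more. For Sod1 these were Myh9, Etfa and Plscr1 (r of 0.999, 0.997 and 0.996), for Sod2 Taf1, Pck2 and Inpp5f (0.991, 0.984 and 0.981), and for Cat Pcyox1, Opa1 and Nab2 (0.997, 0.996 and 0.995). For Srxn1 they were Cdca3, Tcof1 and Lancl2 (0.995, 0.993 and 0.991), for Mt1 Nup37, Dtnb and Ddx27 (0.994, 0.992 and 0.992), and for Mt2 Nipa2 and Ilk (0.994 and 0.991). The 6 points share their libraries and fall into the treatment groups, so high values are common among genes that differ between the groups. The genes named for Sod1 passed the test, and those of Cat and Srxn1 were mixed. Those of Sod2 (edgeR adjusted p = 0.156, 0.117 and 0.293), Mt1 and Mt2 did not pass. Picking the highest of 8250 genes over 6 points also favours high values, and how far was not tested. No gene was named for more than 1 member.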

How the data were processed

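RNA was measured in 6 libraries, 3 saline and 3 carnosine, from poly-A selected stranded paired-end preparations, per the labels' protocols. The authors deposited raw counts and FPKM values per gene and library. CASAVA 1.8, HISAT2, StringTie, edgeR and the build GRCm38 are listed, with no roles, per the submitters' processing notes. Annotation release, strand setting and treatment of multi-mapping reads are not stated there. No molecular identifiers are named, so limits given for counts of 0 cover counting error only.

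Library sizes received TMM factors (0.998 to 1.003), low genes were removed with filterByExpr, and edgeR 4.0.16 under R 4.3.3 gave two-sided quasi-likelihood tests, with a threshold of 0.05 after Benjamini-Hochberg adjustment over 15298 genes. CPM are on that scale. SE and 95% intervals of log2 fold changes come from the F statistic and its degrees of freedom and are not adjusted for multiple tests. The procedure was tested on simulated counts. Libraries of a group differed by more than counting error (chi-square per gene 5.19 to 6.34), so none was the same library read again. That value cannot tell separate preparations of the same RNA from samples of separate mice.

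The 6 genes and all lists were chosen with earlier results of these data known. Named genes were the 6 genes, their relatives Sod3, Mt3, Mt4 and Ccs, in each list up to 4 genes with the smallest p in each direction and the most abundant gene per length, and for each of the 6 the 3 genes most like it (log2 CPM averaging 4 or more), leaving out predicted genes, Rik genes, pseudogenes and immunoglobulin segments, and the 2 most abundant genes of each marker list (given here by the lists' sums alone). A few genes that this rule names are not reported here. Prdx1, Nfe2l2, Keap1, Foxo3, Gm8566, Gm45774, Scaf4, Rps6ka2 and single marker genes were named after their values were seen, and the AP-1 motif was added after the sequences were seen. Copies were sought among GENCODE M21 transcripts with blastn (at least 75 bases at 95% identity). Promoter windows are from RefSeq, GRCm38.p6, and all 6 genes matched by symbol. Alternatives were other scalings, filters, a threshold of 0.01, DESeq2 1.42.0, limma-voom, limma-trend (limma 3.58.1) on log2(FPKM + 1) and log2(FPKM + 0.1), a replicate block and leaving out each library. Marker lists are given only beside the results they bear on.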

Additional observations from a re-analysis of the deposited data

How the results depend on the processing

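All 6 genes of the set kept a positive fold change in the 16 alternatives run for each (17 for Sod1). At a threshold of 0.05, Sod1 passed in all of these (adjusted p up to 0.0426), Srxn1 in 13 and Mt1 in 10, and Cat, Sod2 and Mt2 in 0. With 1 library left out, log2 fold changes ranged from 0.16 to 0.19 for Sod1, 0.08 to 0.14 for Sod2, 0.10 to 0.13 for Cat, 0.62 to 1.07 for Mt1, 0.59 to 1.16 for Mt2 and 0.53 to 0.70 for Srxn1. The same fits called 1 to 2 of the 6 genes higher, 6 to 8 genes of the lists around them higher and 5 to 9 lower (10 and 8 with all libraries), and 932 to 1009 genes higher and 801 to 883 lower among all tested (1455 and 1283 with all libraries); they hold fewer samples. At a threshold of 0.01 the counts were 0 of the 6 genes, 6 and 4 in the lists, and 603 and 504 over all genes. DESeq2 called 1021 genes higher and 813 lower, with 6 list genes higher and 6 lower. Without a filter 1290 genes were higher and 954 lower, with 7 list genes higher and 5 lower. The cause of these smaller counts was not tested.

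Replicate numbers are not said to pair the samples, and deviations of same-numbered libraries from their group means correlated at -0.07, -0.10 and 0.06. These values cannot exclude pairing, since deviations from a mean of 3 libraries are tied to each other. With the replicate block, which changes the degrees of freedom, 946 genes were higher and 810 lower, and 6 list genes were higher and 6 lower. Mt1 then had a log2 fold change of 0.85 and lost its call (edgeR adjusted p = 0.075). The block changed no other call among the 6 genes.

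With the principal transcript's length, saline levels were 250.2 (Sod1), 14.0 (Sod2), 47.9 (Cat), 7.55 (Mt1), 2.58 (Mt2) and 3.10 (Srxn1) CPM per kb. Signs turned for genes near 0: Ccs at -0.0078 (upper quartile scaling), -0.0018 and -0.0026 (FPKM with pseudocounts of 1 and 0.1), and, with 1 library left out, from -0.078 to 0.065 (below 0 without saline replicate 2, at -0.0088, or carnosine replicate 1). Atox1 ranged from -0.021 to 0.042 with 1 library left out (below 0 without saline replicate 2 or carnosine replicate 1). Ftl1 ranged from -0.42 to 0.60 in the same fits (-0.17 without saline replicate 1, -0.18 without saline replicate 2, -0.42 without carnosine replicate 3). No scaling moved the median of all genes by more than 0.1 on the log2 scale. Depth limits Mt2 most, with 7 to 23 counts per saline library and 22 to 40 per carnosine library.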
